A study of Mus musculus with 8 samples.

Results

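This report describes how the labelled Atf4 genotype related to liver RNA levels in mice that had not received AP20187. The comparison used 4 of the 8 arrays of the series, 2 labelled untreated Atf4-/- and 2 labelled untreated Atf4+/+, with 3 of them placed by source name and Atf4+/+ replicate 1 by its description, since its source name gives the genotype but not the treatment. All 4 mice carried the Ttr::Fv2E-PERK transgene, taken from a low-expressing founder line (#58), in which the Ttr (transthyretin) promoter drives the chimeric kinase in liver. The mice were transgene-positive siblings from crosses of that line with the Atf4 knockout strain, followed by a backcross to Atf4+/- stock, on a mixed FvB/n and Swiss Webster background, and the labels give no age and no sex. The series title speaks of mock injection where the labels of these arrays say untreated. The other 4 arrays of the series, 2 of each genotype, came from mice given AP20187, the compound that dimerises Fv2E-PERK. They shared the estimate of the spread and gave each genotype difference in other arrays. Nothing in the labels ties each array to a mouse of its own, so the p-values below may measure only technical spread between samples.

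ATF4 is a basic leucine zipper transcription factor whose translation increases when the kinases PERK, GCN2, PKR or HRI phosphorylate the initiation factor eIF2. Together with C/EBP family partners it binds composite sites in genes for amino acid synthesis, amino acid uptake, tRNA charging and stress signalling, a programme known as the integrated stress response. In unstressed liver little ATF4 protein is thought to be made, and the untreated comparison addresses genotype without dimerisation of the transgenic kinase.

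The values were ratios that for most probe sets centred on 1 over the 8 arrays, so they compare arrays for 1 gene and never 1 gene with another. Atf4 itself (probe set 100599_at) was read first, because the targeted gene checks the labels. It stood at 2.36 and 0.30 in the arrays labelled Atf4+/+ replicates 1 and 2. It stood at 0.29 and 1.67 in the arrays labelled Atf4-/- replicates 1 and 2. The array labelled Atf4+/+ replicate 2 was thus as low as the lower Atf4-/- array, and the array labelled Atf4-/- replicate 2 was close to the higher Atf4+/+ array, so both opposed their labels. With AP20187 the same probe set was at 4.17 and 5.75 in the Atf4+/+ arrays and at 0.25 and 0.33 in the Atf4-/- arrays, and these 4 arrays followed their labels. The untreated Atf4-/- minus Atf4+/+ difference in Atf4 was -0.26 ± 0.99 (SE) on the log2(ratio + 0.1) scale, with a limma adjusted p of 0.999. A further label conflict concerned Atf4-/- replicate 1, whose source name says Atf4-/- and whose description says Atf4+/+; its Atf4 level was the lowest of the 4. Every genotype direction below follows the source names, which give the genotype of all 4 arrays, and so rests on arrays of which 2 go against them.

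Cars, which encodes the cysteinyl-tRNA synthetase and is a known ATF4 target, placed the arrays in nearly the same order; it was singled out after its values were seen. It stood at 3.0 and 0.52 in the arrays labelled Atf4+/+ and at 0.60 and 1.40 in those labelled Atf4-/-. With AP20187 it was at 5.21 and 5.23 against 0.56 and 0.58. Not all known targets shared the untreated order of Cars. Psat1 was highest in Atf4+/+ replicate 2, Nupr1 was lowest in both Atf4+/+ arrays and Aldh18a1 separated by label, as given below. Eif2ak3, the gene for PERK, stood at 0.85 and 1.09 in the untreated Atf4+/+ arrays and at 1.45 and 0.61 in the Atf4-/- arrays, with the genotypes overlapping.

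**Figure D1:**
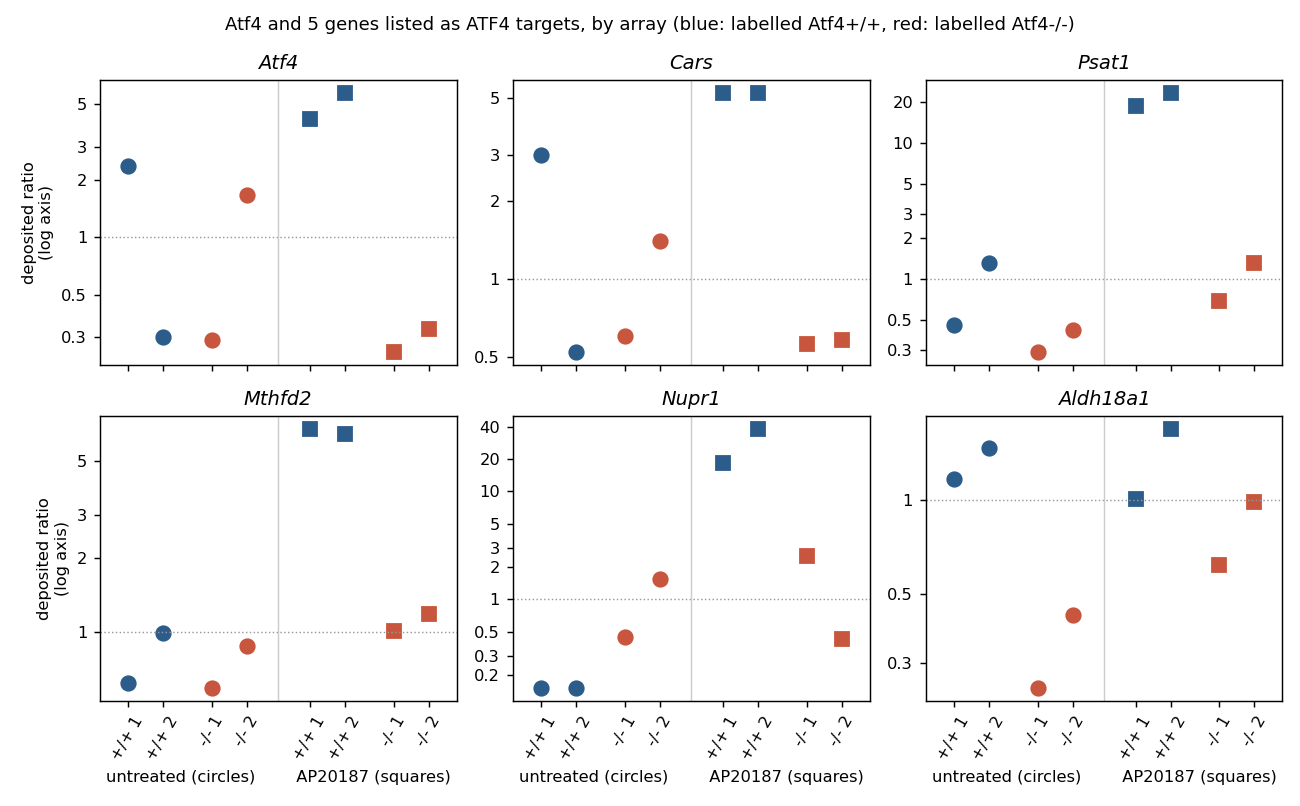
Deposited ratio (vertical, log axis) of Atf4, Cars, Psat1, Mthfd2, Nupr1 and Aldh18a1 in each of the 8 arrays (horizontal), circles for untreated and squares for AP20187 arrays, blue for arrays labelled Atf4+/+ and red for Atf4-/-. Atf4 at 0.30 in untreated Atf4+/+ replicate 2 and at 1.67 in untreated Atf4-/- replicate 2 lie on the side opposite to their labels, while the AP20187 arrays separate by label.

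Over all genes, no difference between the untreated genotypes passed the test. Of 12422 probe sets, 0 (0.0%) had a limma adjusted p under 0.05, and the lowest was 0.134. At an unadjusted p under 0.05, 343 probe sets (2.76%) were higher and 318 (2.56%) lower in the arrays labelled Atf4-/-, 661 (5.32%) in all, beside the 621.1 that a uniform 5% of the probe sets would give. The AP20187 arrays also gave 0 probe sets (0.0%) past the adjusted threshold, with 659 (5.31%) at an unadjusted p under 0.05; without AP20187 Atf4+/+ replicate 1 there were 663 higher and 557 lower. With 2 arrays against 2 the smallest exact permutation p for a single gene is 0.333, so no permutation test could pass.

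Many 2-fold differences did not keep that size without 1 array. Without overlap between genotypes, 15.5% of probe sets were higher and 16.4% lower. By group mean 954 probe sets differed by 2-fold or more, 525 higher and 429 lower in Atf4-/-. For 677 of these (71.0%) the difference dropped under 2-fold when 1 of the 4 arrays was left out, and for 69 it changed sign. Leaving out the more extreme array of a genotype always lowers the difference, so one just over 2-fold can drop under it by a small step. In 203 the genotypes overlapped and in 751 they did not, and 277 stayed at 2-fold or more whichever array was left out. For 200 probe sets the nearest Atf4-/- and Atf4+/+ arrays were themselves 2-fold apart, 108 higher (0.869%) and 92 lower (0.741%). Of these 200, 64 (32.0%) had a median ratio under 0.99 over the 8 arrays, as had 14.2% of all probe sets. Such rows do not centre on 1, and how they were scaled is not known, and its part in these differences was not tested.

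**Figure D2:**
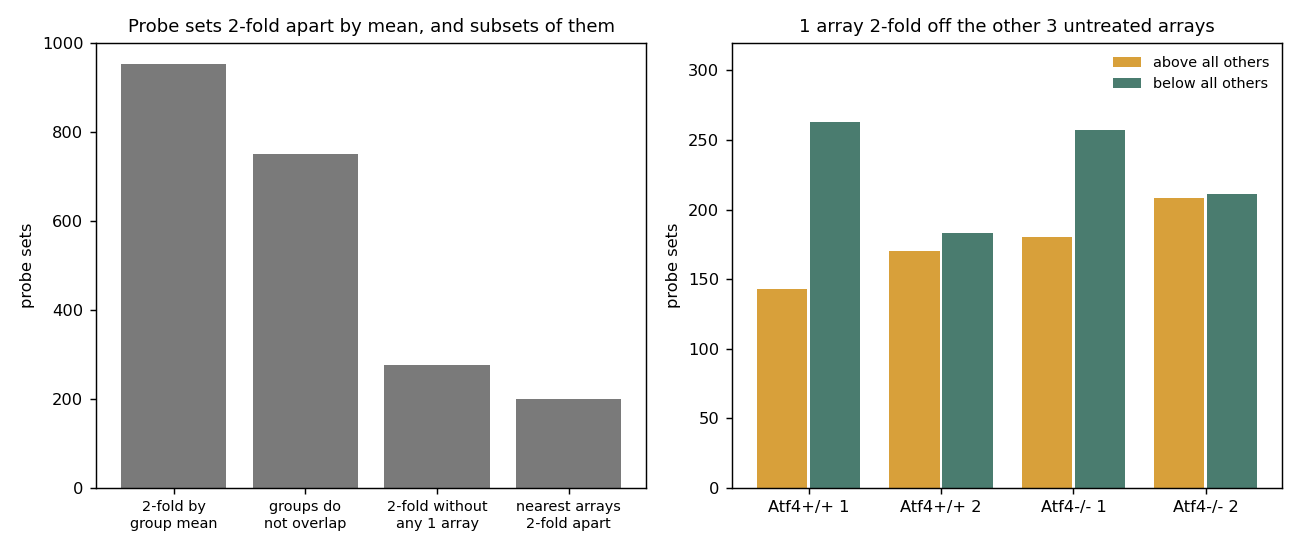
Left, number of probe sets that differed 2-fold by group mean (954), and of those whose groups did not overlap (751), that stayed 2-fold without any 1 array (277) or whose nearest arrays were 2-fold apart (200). Right, number of probe sets in which 1 untreated array stood 2-fold above (yellow) or below (green) the other 3; each array held between 143 and 263 of either kind.

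Single arrays stood 2-fold or more off all 3 others in 1615 probe sets (13%), and no array held most of them. Atf4+/+ replicate 1 stood above the others in 143 and below in 263. Atf4+/+ replicate 2 stood above in 170 and below in 183. Atf4-/- replicate 1 stood above in 180 and below in 257, and Atf4-/- replicate 2 above in 208 and below in 211. The array that stood apart carried the named gene in each case below.

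In Atf4+/+ replicate 1, Robo1, a receptor for SLIT guidance cues, was at 4.34 against 0.62 to 0.70 in the other 3 arrays, and Dkk1, a secreted WNT inhibitor, at 2.06 against 0.30 to 0.42. In the same array Akap7, an anchoring protein for protein kinase A, was at 2.38, while Ubap2l was at 0.04, the aspartic protease Ctse at 0.06 and the vomeronasal receptor gene Vmn1r45 at 0.08. In Atf4+/+ replicate 2, Dbp, a clock output transcription factor, was at 5.37 against 0.27 to 0.56, the CDK phosphatase gene Cdkn3 at 4.08 against 0.50 to 0.66 and Nxph2 at 1.92 against 0.10 to 0.23. That array was lowest in Omd (0.06), Rc3h2 (0.05) and Akap4 (0.09), against 0.79 to 1.58 in the others.

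In Atf4-/- replicate 1, Foxn1, the thymic epithelial transcription factor, was at 6.62 against 0.91 to 1.0, Tmem71 at 3.03 against 0.38 to 0.48 and Npn2 at 2.26 against 0.19 to 0.44. Plagl1, a growth-restraining zinc finger gene, was at 0.12 there, the cohesin regulator Pds5b at 0.11 and the steroid hydroxylase Cyp17a1 at 0.11, against 0.90 to 1.88 in the other arrays. In Atf4-/- replicate 2, Fam3b was at 2.55 against 0.19 in each of the other 3, Dnajc17 at 3.50 against 0.45 to 0.54 and Uevld at 2.73 against 0.34 to 0.46. The same array was lowest in Prl7a2 (0.06), the costimulatory ligand Cd80 (0.22) and Reg2 (0.14). Of these genes Ubap2l, Ctse, Plagl1 and Reg2 had other probe sets with a difference of the opposite sign. The other probe sets of Cyp17a1, Cd80 and Prl7a2 kept the sign, but in them the array named did not stand 2-fold off the others.

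The genes closest to the threshold were chosen by p, which selects a small spread within each genotype and little change without 1 array, so both are descriptions here. The 24 named by their p depended on the label of Atf4-/- replicate 1, which entered their choice. With its description in place of its source name, Atf4-/- replicate 2 was the only Atf4-/- array left. All 24 then kept their sign and 19 stayed 2-fold apart. Since they were chosen with both Atf4-/- arrays on the same side, the kept sign is no separate support. Of these 24 genes 8 had a median ratio under 0.99 over the 8 arrays, as had 14.2% of all probe sets. They were Ccr1, Esrp1, Myo1e, Il5ra, Bst1, Nid2, Cep295nl and Syce2. The scaling of such rows is not known, and its part in these differences was not tested. Ccr1, a chemokine receptor of leukocytes, was at 0.50 and 0.62 in the Atf4+/+ arrays and at 2.98 and 4.08 in the Atf4-/- arrays. Both Atf4-/- arrays lay far above both Atf4+/+ arrays, and the difference of 2.45 ± 0.24 (SE, log2) ranged from 2.23 to 2.67 when 1 array was left out (limma adjusted p = 0.134). In the AP20187 arrays Ccr1 was at 0.58, 0.56, 0.61 and 0.57, with no separation. Dpt (dermatopontin, an extracellular matrix protein) was at 0.35 and 0.44 against 2.0 and 2.67, a difference of 2.29 ± 0.24. S100g, the vitamin D-responsive calbindin D9k, was at 0.34 and 0.38 against 1.97 and 1.40, a difference of 1.94 ± 0.23, though its other probe set gave -0.55. All 3 shared the adjusted p of 0.134, and none passed.

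Other genes higher in the Atf4-/- arrays were Agr2, a disulfide isomerase of secretory epithelia, at 0.22 and 0.32 against 1.91 and 1.23. Of 2 other Agr2 probe sets, 1 gave a difference of -0.24. Bmp8b, a BMP ligand, was at 0.60 and 0.56 against 2.70 and 2.08. Pde1c, a calmodulin-dependent phosphodiesterase, was at 0.10 and 0.20 against 1.10 and 1.19. These were genes of unlike function, with no overlap between genotypes in any.

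Ndufc2, a respiratory complex I subunit, was at 0.22 and 0.27 against 1.06 and 0.90. Cacna2d3, a calcium channel auxiliary subunit, was at 0.76 and 0.78 against 2.43 and 2.04. Adra2c, an adrenergic receptor, was at 0.27 and 0.41 against 1.05 and 1.33. Esrp1, an epithelial splicing regulator, had one of the widest gaps, at 0.28 and 0.46 against 2.52 and 2.99. Myo1e, a class I myosin, was at 0.33 and 0.59 against 2.67 and 2.33, and Il5ra, the interleukin 5 receptor subunit of eosinophils, at 0.21 and 0.16 against 0.73 and 1.27. Their differences lay between 1.42 and 2.63, with adjusted p-values from 0.273 to 0.385. Ctla4, Gbp2b and the olfactory receptor gene Olfr157 joined them by the width of the gap, at 0.29 and 0.44 against 3.96 and 1.73, at 0.40 and 0.77 against 3.11 and 3.05, and at 0.19 and 0.27 against 1.12 and 1.34.

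Among genes lower in the Atf4-/- arrays, Rrm2, the small subunit of ribonucleotide reductase, was at 1.14 and 1.31 in Atf4+/+ and at 0.26 and 0.21 in Atf4-/-. The difference was -1.99 ± 0.22 (SE, log2; limma adjusted p = 0.134) and stayed between -2.09 and -1.88 without any 1 array. Ilf2, a double-stranded RNA binding protein, was at 1.57 and 1.01 against 0.08 and 0.11, a difference of -2.81 ± 0.32. Nid2, a basement membrane protein, was at 1.61 and 1.36 against 0.06 and 0.18, a difference of -2.90 ± 0.35. The Atf4-/- arrays of both genes were near the bottom of the ratio scale, where the added 0.1 makes log2 differences smaller than the ratios themselves.

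Mrvi1, a substrate of cyclic GMP-dependent kinase, was at 1.57 and 1.87 against 0.43 and 0.37. Yme1l1, a mitochondrial inner membrane protease, was at 1.0 and 1.36 against 0.12 and 0.19, and its other probe set gave -0.29. Bst1, an ectoenzyme that forms cyclic ADP-ribose, was at 0.99 and 1.04 against 0.15 and 0.18. Like Rrm2, these 3 had an adjusted p of 0.134, the lowest of the table. Il1f5, a receptor antagonist of the interleukin 1 family, was at 1.96 and 1.12 against 0.15 and 0.20, and Wdr55, a nucleolar WD repeat protein gene, at 1.46 and 1.61 against 0.27 and 0.45.

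Cep295nl was at 1.24 and 1.25 against 0.23 and 0.37, and the synaptonemal complex gene Syce2 at 1.86 and 2.92 against 0.23 and 0.47. Ucp3, a mitochondrial carrier, was at 1.06 and 1.64 against 0.36 and 0.31, and Chrnd, a subunit of the muscle acetylcholine receptor, at 1.08 and 0.90 against 0.36 and 0.27. By the width of the gap 3 more joined them, the splicing factor gene U2surp, the transcription factor gene Mef2c and the Notch target Hey1. U2surp was at 1.56 and 1.43 against 0.20 and 0.16, Hey1 at 2.16 and 2.22 against 0.53 and 0.54, and Mef2c at 1.95 and 1.64 against 0.33 and 0.15. The 3 other probe sets of Mef2c gave differences of 0.01, 0.44 and 0.05.

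**Figure D3:**
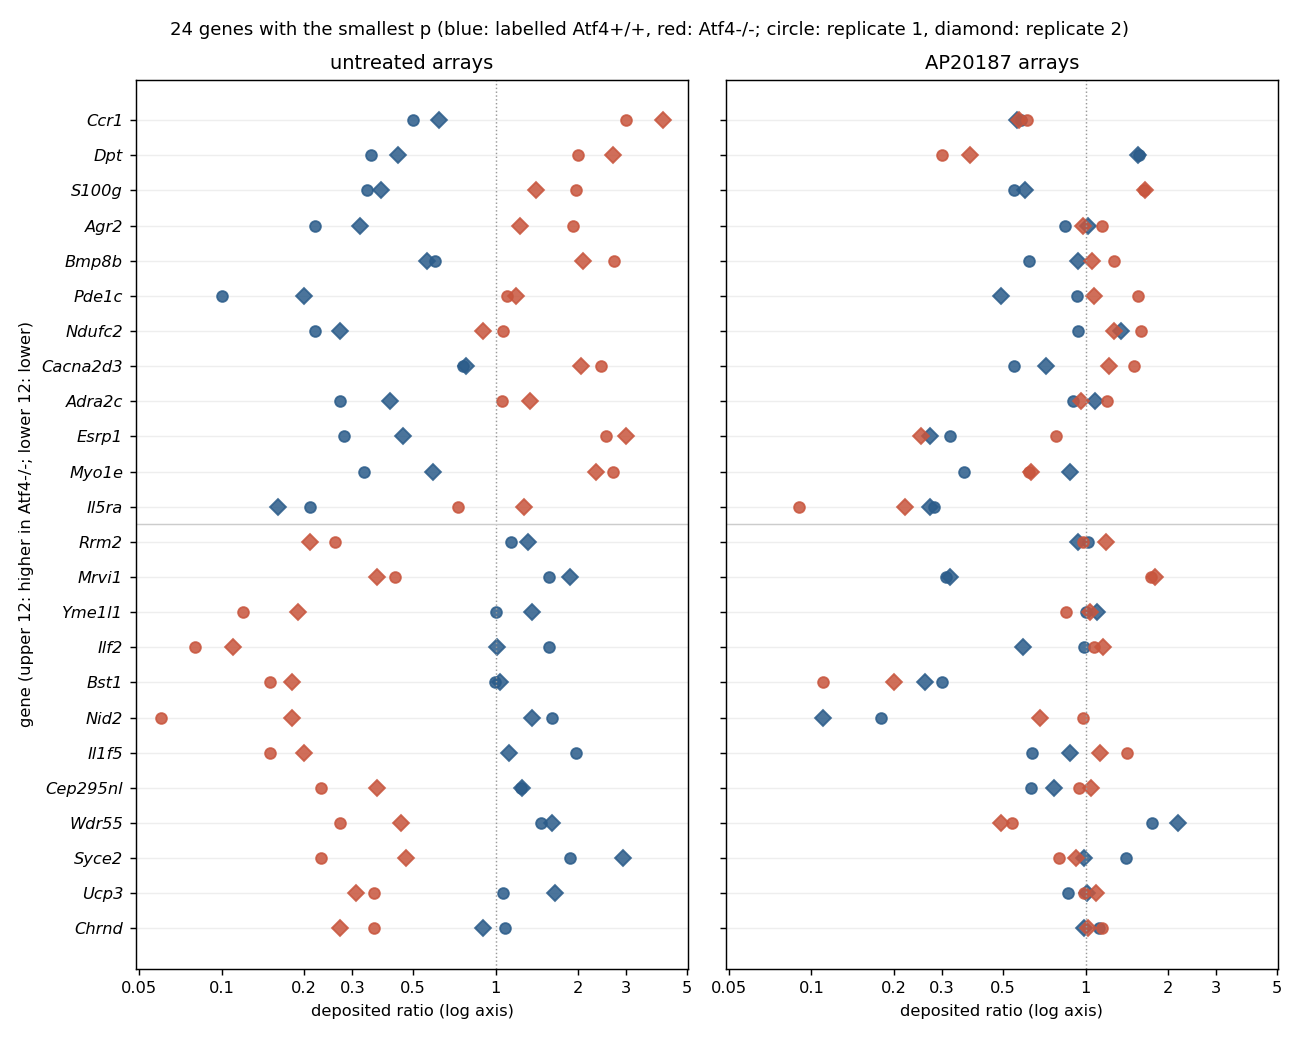
Deposited ratio (horizontal, log axis) of the 12 higher and 12 lower genes with the smallest p, in the untreated arrays (left) and the AP20187 arrays (right); blue for Atf4+/+, red for Atf4-/-, circles for replicate 1 and diamonds for replicate 2. On the left the colours separate in all 24 genes, by which the genes were chosen; on the right the separation keeps its direction in 7, turns round in 7 and is lost in 10.

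The AP20187 arrays share no array with the untreated comparison, so they offer the same genotype contrast in other samples, though under another condition. Their spread within genotypes entered each untreated p, so genes chosen by that p were also chosen for little spread in the AP20187 arrays. Counts without overlap there are therefore not free of the choice. Of the 24 genes with the smallest p, 7 kept their direction there with no overlap between genotypes, 7 had the opposite direction with no overlap, and in 10 the genotypes overlapped. In the AP20187 arrays 19.2% of all probe sets were higher without overlap and 15.3% were lower. Wdr55 had a like difference in both, at 1.75 and 2.18 in Atf4+/+ against 0.54 and 0.49 in Atf4-/- with AP20187, a difference of -1.74 ± 0.27 beside -1.86 ± 0.27 untreated. S100g also kept its direction, at 0.55 and 0.60 against 1.64 and 1.65, as did Cacna2d3, Bmp8b, Pde1c, Bst1 and Syce2. Each of these 7 genes separated the genotype labels in all 8 arrays, which for the untreated arrays follows from their choice by p.

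Dpt, Mrvi1 and Nid2 turned round. With AP20187 Dpt was at 1.57 and 1.56 in Atf4+/+ and at 0.30 and 0.38 in Atf4-/-, the reverse of the untreated arrays. Mrvi1 was at 0.31 and 0.32 against 1.74 and 1.80, and Nid2 at 0.18 and 0.11 against 0.98 and 0.68. The test of the difference between the 2 genotype differences gave 0 of 12422 probe sets (0.0%) at an adjusted p under 0.05 and 678 (5.46%) at an unadjusted one. Its adjusted p was 0.0692 for Dpt and 0.0666 for Mrvi1, and only these 2 passed, at 0.0391 and 0.0348, when probe sets with a median ratio under 0.99 were left out. Of the 200 probe sets with nearest arrays 2-fold apart, 30 kept their direction without overlap, 34 had the opposite one and 136 overlapped. Across all 12422 probe sets, which are not independent replicates, the 2 genotype differences had a Pearson correlation of -0.011.

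**Figure D4:**
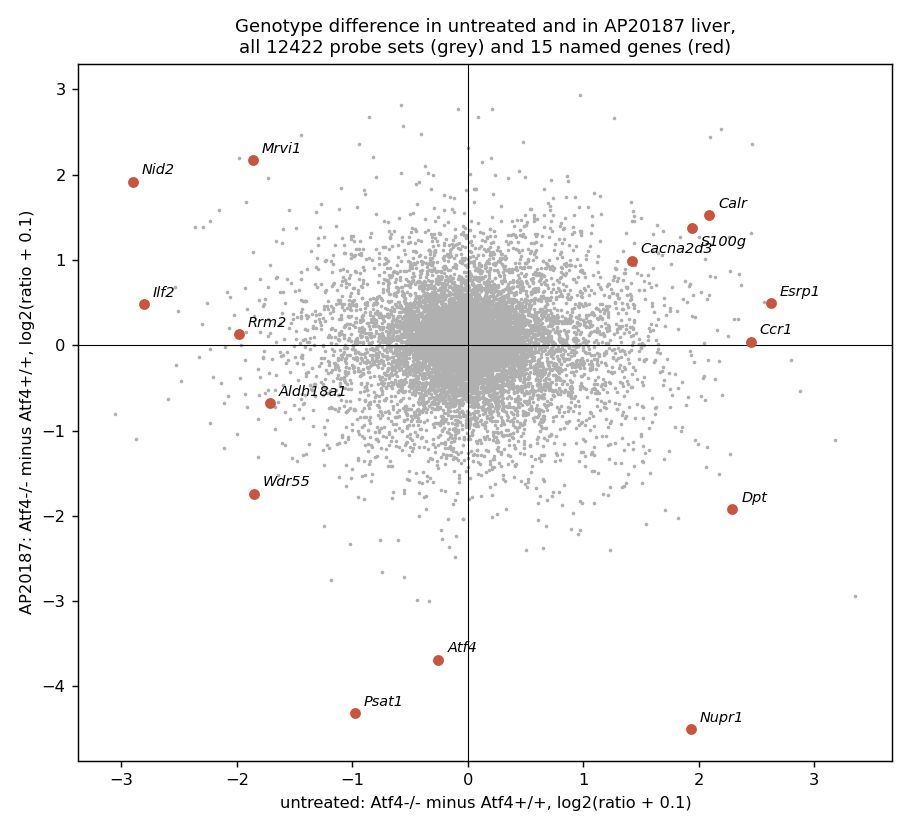
Atf4-/- minus Atf4+/+ difference in untreated arrays (horizontal) against that in AP20187 arrays (vertical), both in log2(ratio + 0.1), for 12422 probe sets (grey) and 15 genes named in the text (red, with their symbols). Wdr55, S100g, Calr and Cacna2d3 lie in the quadrants of equal sign, Dpt, Mrvi1, Nid2 and Nupr1 in those of opposite sign, and Atf4 lies at -0.26 untreated and -3.69 with AP20187.

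Of 24 known ATF4 targets measured, 9 had a difference above and 15 below 0, where 47.4% and 52.6% of all genes did, and 1 was under an unadjusted p of 0.05, beside 2.39% higher and 2.55% lower of all 8251 genes. Without overlap 7 were lower and 3 higher, where 17.5% and 14.6% of all genes were. Their median difference was -0.12, beside -0.02 over all genes, and with AP20187 the same genes had a median of -0.69, with 17 of 24 lower without overlap, where 15.8% of all genes were. Without both arrays whose Atf4 level opposes the label the untreated median was -0.28. The mean log2 level of the list was -0.33 and -0.31 in the Atf4+/+ arrays and -0.61 and -0.31 in the Atf4-/- arrays, so that Atf4-/- replicate 1 alone was lower.

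Aldh18a1, the enzyme that starts proline synthesis from glutamate, was at 1.17 and 1.47 in Atf4+/+ and at 0.25 and 0.43 in Atf4-/-. Its difference of -1.71 ± 0.37 (SE, log2) had a limma unadjusted p of 0.0031 and an adjusted p of 0.577, and its other probe set gave 0.11. Psat1, an enzyme of serine synthesis, was at 0.46 and 1.31 against 0.29 and 0.42, and Slc7a11, the cystine transporter, at 1.11 and 1.42 against 0.19 and 0.89. For both the genotypes did not overlap, but the nearest arrays differed by only 0.11 and 0.29 in log2. Nupr1, a small stress-induced chromatin protein, went the other way, at 0.15 and 0.15 against 0.45 and 1.55. With AP20187 it was at 18.55 and 38.40 in Atf4+/+ and at 2.54 and 0.43 in Atf4-/-.

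Among other amino acid enzymes, Asns, the asparagine synthetase, was at 0.65 and 0.98 against 0.85 and 1.03. Its other probe set was at 0.57 and 0.33 against 1.59 and 1.71 without overlap, a difference of 1.70 with a limma unadjusted p of 0.0014. Mthfd2, a mitochondrial folate enzyme, was at 0.62 and 0.99 against 0.59 and 0.88, and with AP20187 at 6.79 and 6.43 against 1.01 and 1.19. The genotypes overlapped in Mthfd2 and in the first Asns probe set. Phgdh was at 0.88 and 1.12 against 0.66 and 1.04, Psph at 0.95 and 0.84 against 1.06 and 1.09, and Shmt2 at 1.38 and 1.01 against 0.99 and 0.94.

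The stress regulators among the targets were low in all 4 untreated arrays relative to the treated ones. Ddit3, which encodes CHOP, was at 0.09 and 0.21 against 0.30 and 0.11. Atf3 was at 0.28 and 0.15 against 0.14 and 0.19, and Trib3, a pseudokinase, at 0.06 and 0.09 against 0.03 and 0.27. Atf5 was at 0.47 and 0.45 against 0.11 and 0.46, with Atf4-/- replicate 1 alone low. In each of these 4 the genotypes overlapped, while with AP20187 the levels ran from 1.53 to 16.59.

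Among the other targets, the transporters Slc7a5, Slc3a2, Slc1a4 and Slc7a3 had differences of -0.49, 0.39, -0.11 and -0.13. Eif4ebp1, an inhibitor of cap-dependent translation, was at -0.22, the partner factor gene Cebpg at 0.03 and the lipoprotein receptor Vldlr at 0.35. The synthetases Aars, Gars and Wars were at -0.06, -0.20 and 0.05. No difference among these genes was under an unadjusted p of 0.05.

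The composite element that C/EBP and ATF4 dimers bind was searched as the letters TGATGNAAN on either strand of RefSeq promoter windows from GRCm38.p6, 250 bases before to 50 after each start, with a window counted once however many matches it held. Of 19 measured targets with a window, 9 held it (47.4%), beside 196 of 6576 measured genes with a window (2.98%) and 3.95% of 32851 windows. The windows searched did not cover every gene, only 6576 of 8251 measured genes and 19 of 24 targets. Among the genes with the smallest p they covered 11 of 12 higher and 7 of 12 lower. A gene without a window was not searched, so its promoter may or may not hold a match. The sites below show what the targets carry, with Il5ra as the only one of the genes with the smallest p that had a match, 1 of 11 higher and 0 of 7 lower genes with a window. Each runs 5′ to 3′ along the gene's strand, ends at or before the start site, and has the match in capitals.
Asns, chr6:7693210-7693262, minus strand: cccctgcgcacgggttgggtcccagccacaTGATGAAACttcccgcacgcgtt
Atf3, chr1:191183406-191183474, minus strand: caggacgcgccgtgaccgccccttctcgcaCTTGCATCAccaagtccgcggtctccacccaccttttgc
Nupr1, chr7:126625543-126625611, minus strand: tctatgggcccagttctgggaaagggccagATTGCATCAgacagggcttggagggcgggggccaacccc
Slc7a11, chr3:50443623-50443691, minus strand: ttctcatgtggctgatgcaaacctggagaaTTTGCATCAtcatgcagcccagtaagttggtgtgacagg
Il5ra, chr6:106749220-106749287, minus strand: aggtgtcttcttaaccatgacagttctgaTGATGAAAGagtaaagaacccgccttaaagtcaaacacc

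In Atf3, Nupr1 and Slc7a11 the match reads on the other strand, so the capitals show its reverse complement, and the Slc7a11 line holds a further match, left in lower case. Of the 4 targets printed, Atf3 overlapped between the untreated genotypes, as did Asns in 1 of its probe sets and not in the other, Slc7a11 was lower and Nupr1 higher in Atf4-/-. Aldh18a1, Psat1 and Mthfd2 had no match in their windows, and Cars was not in the promoter table.

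Across 47 lists of pathways and cell types, the known targets among them, 610 distinct genes gave 12 higher (1.97%) and 10 lower (1.64%) at an unadjusted p under 0.05, near the 2.39% and 2.55% of all genes. The medians of 28 of the 47 lists changed sign when some untreated array was left out. In bulk liver, fewer cells of a type and less RNA per cell cannot be told apart. Groups of overlapping function are described next by their counts and medians, beside -0.02 over all genes.

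Regulators of the integrated stress response had 9 of 19 above 0 and a median of -0.02, and enzymes of amino acid and one-carbon synthesis 5 of 11 and -0.11. Amino acid transporters had 6 of 12 above 0 and a median of -0.04. Aminoacyl-tRNA synthetases had 5 of 18 above 0 and a median of -0.18, with 3 lower and 1 higher without overlap, where 17.5% and 14.6% of all genes were. Eprs, the glutamyl-prolyl synthetase, was at 0.93 and 0.75 against 0.60 and 0.53, and Sars, the seryl synthetase, at 0.78 and 0.57 against 0.26 and 0.56. Translation factors had 16 of 21 below 0, with 7 lower and 1 higher without overlap, where 17.5% and 14.6% of all genes were. Their median was -0.14, or -0.087 with all probe sets of each gene averaged. Eif3c among them was at 0.89 and 0.97 against 0.75 and 0.63.

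ER chaperones had 10 of 16 below 0 and a median of -0.08, which was -0.40 without Atf4-/- replicate 1 and 0.23 without Atf4-/- replicate 2. Calr, the calcium-binding chaperone calreticulin, stood apart from them at 0.16 and 0.42 in Atf4+/+ against 1.11 and 1.93 in Atf4-/-, a difference of 2.09 ± 0.57 (SE; limma adjusted p = 0.706). With AP20187 Calr was at 0.89 and 0.29 against 2.10 and 1.36. Its partner lectin Canx was at 1.32 and 1.27 against 1.22 and 0.85, and Hspa5, the ER chaperone BiP, at 0.73 and 0.71 against 0.90 and 0.47.

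Cholesterol synthesis had the lowest median of the 47 lists, -0.67, with 14 of 16 genes below 0, and 1 array carried it. Msmo1 was at 1.65 and 3.36 in Atf4+/+ and at 0.86 and 1.30 in Atf4-/-. Idi1 was at 1.24 and 4.15 against 1.03 and 1.61, and Hmgcs1, which makes the substrate of HMG-CoA reductase, at 1.28 and 3.01 against 0.88 and 1.15. In all 3 Atf4+/+ replicate 2 was far above the other arrays. Without that array the median was -0.05, and without Atf4+/+ replicate 1 it was -1.19. With AP20187 it was 0.29, with 14 of 16 above 0.

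The same array stood apart in clock genes. Dbp is given above, and Nr1d1, the clock repressor REV-ERB alpha, was at 0.80 and 5.21 in Atf4+/+ against 0.58 and 1.02, and Nr1d2 at 0.99 and 2.32 against 0.73 and 0.78. Arntl, which encodes BMAL1, was at 0.95 and 0.20 against 1.04 and 0.76, and Cry1 at 0.99 and 0.25 against 1.16 and 0.92. Cry1 differed by 0.88 in log2 here, and by -0.50 and 0.19 in its other probe sets. Circadian clock genes had 8 of 15 below 0 and a median of -0.11. The labels give no time of collection, and its part in these levels was not tested.

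Apolipoprotein and albumin genes had 15 of 17 above 0 and a median of 0.25, with 8 higher and 0 lower without overlap, where 14.6% and 17.5% of all genes were. Alb was at 0.99 and 0.92 against 1.22 and 1.22, Apoe at 1.01 and 0.89 against 1.24 and 1.21, and Apoa1 at 1.0 and 1.0 against 1.36 and 1.13. The other Apoe probe set, not counted in the list, was at 0.35 and 0.27 against 2.67 and 0.57. Its log2 difference was 1.74, with a limma unadjusted p of 0.0295. Apoa4, an intestinal and hepatic lipoprotein protein, was at 0.47 and 0.76 against 2.70 and 1.07. Among the probe sets counted it was the only one under a limma unadjusted p of 0.05, as were 2.39% of all genes in this direction. The median stayed above 0 without any 1 array, between 0.15 and 0.28. With AP20187, 12 of the 17 were higher without overlap, where 19.5% of all genes were, and the median was 0.21. The hepatocyte markers, of which Alb, Ttr, Apoa1 and Ahsg belong to both lists, had 6 of 8 above 0, a median of 0.16 and mean log2 levels between 0.02 and 0.33 in the 4 arrays.

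MHC class II genes, which present antigen on macrophages, dendritic and B cells, had the highest median, 0.72, with 9 of 10 above 0. Without overlap 5 were higher and 1 lower, where 14.6% and 17.5% of all genes were. H2-Eb1 was at 1.04 and 0.26 against 1.63 and 1.76, and H2-DMb1 at 0.30 and 0.60 against 1.79 and 0.90. These 2 were under a limma unadjusted p of 0.05, as were 2.39% of all genes in this direction. H2-Aa was at 0.51 and 1.12 against 2.75 and 0.77 and Cd74, the invariant chain, at 0.68 and 1.05 against 2.13 and 0.92, with only Atf4-/- replicate 1 high. Without that array the median was 0.13. With AP20187 it was -0.10, with 4 of 10 above 0 and 4 lower without overlap, where 55.1% and 15.8% of all genes were. The macrophage and Kupffer cell markers had mean log2 levels of -0.18 and 0.15 in Atf4+/+ and of 0.61 and -0.29 in Atf4-/-, highest in the same array, and their part in the class II levels was not tested.

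Among other blood cell markers, 7 of 10 of neutrophils were above 0 (median 0.28), 5 of 11 of T and NK cells (median -0.067), 4 of 7 of B and plasma cells (median 0.043) and 2 of 5 of erythroid cells (median -0.048). The neutrophil gene S100a8 was at 0.54 and 0.98 against 2.60 and 0.93, and Cd3g, of the T cell receptor complex, at 0.36 and 0.71 against 0.98 and 3.55. Without overlap 4 of the 11 T and NK cell markers were higher and 0 lower, where 14.6% and 17.5% of all genes were. Of 8 mast cell and eosinophil markers 5 were above 0 and the median was 0.42, or 0.20 with all probe sets of each gene averaged. Without overlap 3 of these 8 were higher and 0 lower. Those above 0 included Il5ra and Ccr3, the latter at 1.05 and 0.47 against 2.11 and 1.94. The eosinophil granule genes Epx, at 0.18 and 0.21 against 0.29 and 0.29, and Prg2, at 1.07 and 1.03 against 1.07 and 0.95, differed by 0.40 and -0.05. No marker could be called absent, because each probe set was scaled to itself.

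Proteasome subunits had 22 of 26 below 0, with 11 lower and 1 higher without overlap, where 17.5% and 14.6% of all genes were, and a median of -0.14. Psmc1 was at 1.17 and 1.25 against 0.89 and 0.90, and Psma6 at 1.07 and 1.11 against 0.84 and 0.83. Psmb4, 1 of 4 subunits above 0, was at 0.66 and 0.72 against 1.66 and 1.57, while its other probe sets gave 0.014 and 0.40. With AP20187 the list had 21 of 26 above 0, where 55.1% of all genes were, and a median of 0.18.

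Cell division genes had 15 of 25 below 0, 8 lower and 1 higher without overlap, where 17.5% and 14.6% of all genes were, and a median of -0.16. Beside Rrm2, its partner subunit Rrm1 was at 3.33 and 1.60 against 1.07 and 0.61, though its other probe set gave 0.95, and Aurka, a mitotic kinase, at 1.76 and 2.61 against 1.37 and 0.37. These 3 were under an unadjusted p of 0.05, as were 2.55% of all genes in this direction. Cdk1 was at 2.29 and 0.98 against 0.61 and 0.78. With AP20187 the list had 12 of 25 above 0 and a median of -0.11.

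Interferon-induced genes had 11 of 23 above 0 and a median of -0.06, with Ifit3 at 1.47 and 1.12 against 0.19 and 0.78. Acute phase genes had 13 of 20 above 0 and a median of 0.13, and Lcn2, an iron-sequestering lipocalin, was at 0.98 in Atf4-/- replicate 1 against 0.08 to 0.27 in the other arrays. The other Lcn2 probe set did not show this, at 0.86 and 1.01 in Atf4+/+ against 0.96 and 1.05 in Atf4-/-. Respiratory chain genes had 15 of 30 above 0 and a median of -0.01. Skeletal muscle markers had 7 of 8 below 0 and a median of -0.48, with Tnnt3 at 1.18 and 1.5 against 0.59 and 0.92, but with all probe sets of each gene averaged the median was -0.06. The medians of 17 of the 47 lists, with and without each array, stand in the plot of list medians.

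**Figure D5:**
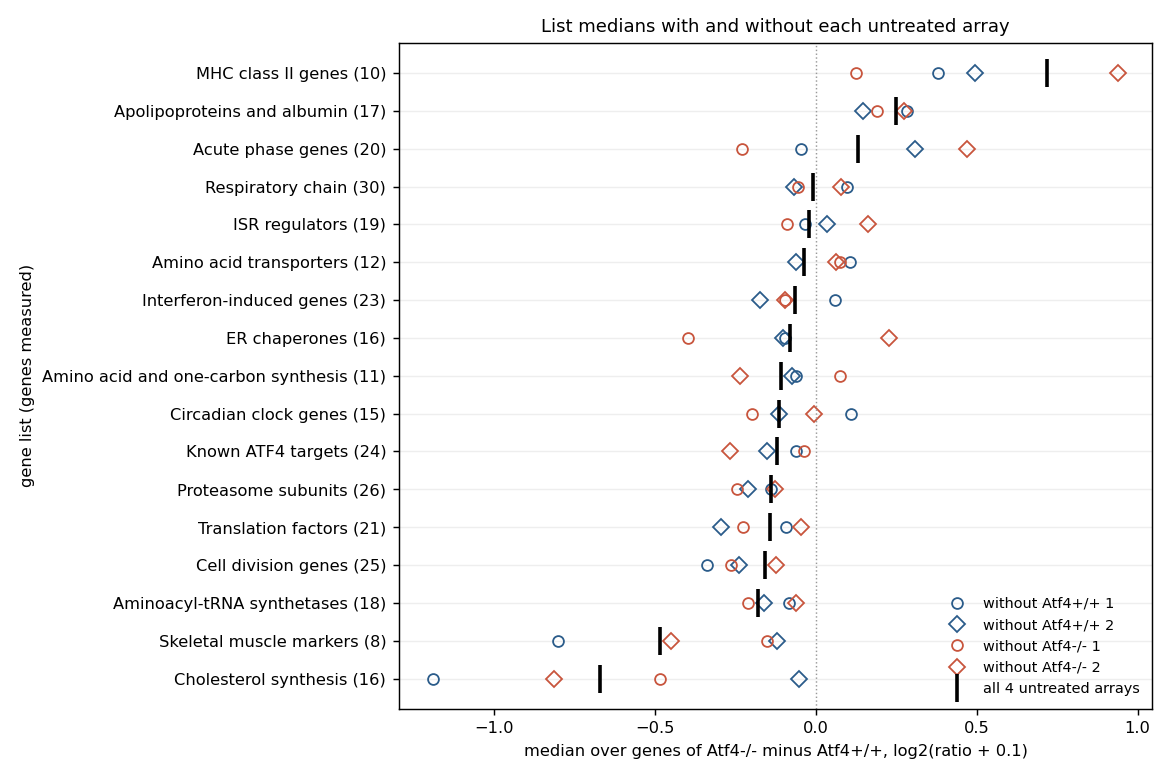
Median Atf4-/- minus Atf4+/+ difference over the genes of 17 lists (horizontal, log2(ratio + 0.1); number of genes measured in brackets), black bars for all 4 untreated arrays and open symbols for the median without each array in turn. Cholesterol synthesis runs from -1.19 to -0.05 and MHC class II genes from 0.13 to 0.94 depending on the array left out, while the apolipoprotein and albumin genes stay between 0.15 and 0.28.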

How the data were processed

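The 8 samples, total RNA from mouse liver, were hybridised to Affymetrix MG-U74Av2 arrays, in 4 groups of 2 set by AP20187 and Atf4 genotype. The authors deposited linear ratios in steps of 0.01, and the row median over the 8 arrays reached 0.99 or more in 85.8% of 12488. The summary and scaling of the signals are not given in the sources. Signal over background is unknown in ratios, so its limit on precision could not be assessed beside that set by the number of arrays. Tests covered 12422 probe sets, without 66 controls; 10833 had 1 gene, 396 several and 1193 none.

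Group means of log2(ratio + 0.1) over all 8 arrays were compared in limma 3.58.1 (R 4.3.3), with empirical Bayes variances (4 residual and 2.37 prior degrees of freedom), Benjamini-Hochberg adjustment over all 12422 and a threshold of 0.05. The script was tested on simulated data. No call was made at this threshold; the median standard error was 0.325 in log2.

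A gene was read from 1 probe set: first by a row median of 0.99 or more, next by a name ending in _at alone, last by the smaller within-group spread. Named genes were Atf4, Eif2ak3, the 12 higher and 12 lower with the smallest p, the 8 and 8 with the widest gap between nearest arrays, the 3 highest and 3 lowest stand-outs of each untreated array, up to 4 per list, and all measured ATF4 targets; predicted genes and clone names were left out. Other list members are named where their values show 1 array. Members and lists were chosen with earlier results of these data known. Alternatives changed the pseudocount, scaling, filter, arrays, genotype label and variance model.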

Additional observations from a re-analysis of the deposited data

How the results depend on the processing

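No probe set passed the adjusted threshold for the untreated genotype difference under any alternative run. For the difference between the genotype differences, 2 passed with only probe sets of row median at least 0.99. Atf4 itself was 1.28 with the description in place of the source name, and -1.57 to 1.06 without 1 array, turning to 1.06 without Atf4+/+ replicate 1 and 0.84 without Atf4-/- replicate 1. Without 1 AP20187 array, the unadjusted counts of the genotype difference with AP20187 ran from 254 to 663 higher and 239 to 557 lower, and those of the difference between differences from 259 to 579 higher.

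Probe sets with nearest arrays 2-fold apart (108 higher, 92 lower) became 68 higher with the row median filter. By description, Atf4-/- replicate 2 was the only Atf4-/- array left. The counts of 208 and 211 are then its stand-outs above and below all other untreated arrays, given earlier. They say nothing on the genotype beyond that array. The counts were 1038 and 875 without both arrays whose Atf4 level opposes the label, where 1 array a group remained and no overlap could arise within a group. A gap of 1.5-fold gave 289 and 246, and a gap of 3-fold 29 and 26. Without 1 array there were 362 to 457 higher and 290 to 423 lower. Single arrays 3-fold off the others, an alternative chosen after seeing the data, numbered 464.

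Without both doubted arrays, also chosen after seeing the data, list medians were -0.28 for known ATF4 targets, 0.12 for stress response regulators, -0.37 for amino acid synthesis, 0.0049 for amino acid transporters, -0.019 for tRNA synthetases, 0.23 for ER chaperones, 0.018 for clock genes and 0.59 for acute phase genes. Averaging probe sets gave -0.056 for skeletal muscle markers. Without 1 array the medians ran from -0.088 to 0.16 for stress response regulators, -0.23 to 0.076 for amino acid synthesis, -0.060 to 0.11 for transporters, -0.21 to -0.062 for tRNA synthetases, -0.30 to -0.045 for translation factors, -0.40 to 0.23 for ER chaperones, -1.19 to -0.051 for cholesterol synthesis, 0.15 to 0.28 for apolipoproteins, 0.13 to 0.94 for MHC class II, -0.24 to -0.13 for proteasome, -0.34 to -0.12 for cell division, -0.17 to 0.061 for interferon-induced, -0.20 to 0.11 for clock and -0.066 to 0.098 for respiratory chain genes. The cause of these shifts was not tested.

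Of 244 named genes, 90 changed sign under some alternative, 48 of them by description. Stand-outs of single arrays were not recomputed without an array, since they need all 4. No paired analysis was possible because the labels give the groups no shared replicate numbers. Ratios carry no detection call, so the limit set by signal over background could not be assessed.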
